A study of Mus musculus with 2 samples.

Results

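The genes described here are the 43 that code for the proteasome, its activators, its inhibitor and its assembly factors, chosen by gene symbol among 18090 genes listed in either library. They are the 7 alpha subunits, the 7 standard beta subunits, the 3 immunoproteasome subunits Psmb8, Psmb9 and Psmb10, 17 subunits of the regulatory particle, the 4 activators Psme1 to Psme4, the inhibitor Psmf1, and the assembly factors Psmd5, Psmd9, Psmd10 and Pomp. The rule that chose them names genes and uses no expression value, although it was set with earlier results of these data known. All 43 were listed in both libraries and had at least 1 RPKM (reads per kilobase of gene model and per 1000000 reads counted to genes).

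The study sequenced RNA of dendritic cells, which take up antigen and present it to T cells, in 2 libraries labelled immature and mature. Both came from C57BL/6 bone marrow cells cultured in RPMI-1640 for 6 days under GM-CSF (10 ng/ml) plus IL-4 (1 ng/ml), growth factors that turn marrow precursors into dendritic cells. The mature cells also received 100 ng/ml of lipopolysaccharide (LPS, a Tlr4 ligand from bacterial walls) over 24 h in the same cytokines. The protocol calls them sample 2, taken here to be the library labelled mature. It leaves unsaid if immature cells stayed in culture for that extra time. Both populations were sorted on CD86 and on I-Ab, an MHC class II molecule, with gates that the labels do not give. The labels do not say whether marrow of several animals was pooled. No genetic change is named for either group.

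The proteasome is the barrel-shaped protease that degrades proteins tagged with ubiquitin. Its core, the 20S particle, stacks outer rings of alpha subunits, which form the gate, on inner rings of beta subunits, of which Psmb5, Psmb6 and Psmb7 carry the active sites. The 19S regulatory particle binds ubiquitin, unfolds the substrate and opens the gate. Interferons and inflammatory signals are known to replace the active subunits in newly built cores by Psmb8, Psmb9 and Psmb10, which gives the immunoproteasome, and to raise the PA28 activator made of Psme1 and Psme2. Dendritic cells are known to hold immunoproteasomes, whose cleavage favours peptides that fit MHC class I molecules, and the Tap1-Tap2 transporter carries such peptides into the endoplasmic reticulum.

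Sequences of the promoters place the genes whose values follow. In the RefSeq annotation of build GRCm38.p6, Psmb9 and Tap1 stand head to head inside the MHC class II region of chromosome 17, in the order H2-DMb1, Psmb9, Tap1, Psmb8, Tap2, H2-Ob, so that an immunoproteasome gene neighbours each gene of the peptide transporter. The start sites of Psmb9 and Tap1 are 226 bases apart, and all bases between them (chr17:34187331-34187555, + strand, which is the sense strand of Tap1) are shown because both genes share this stretch; capitals mark 1 CCAAT box (CCAAT) and 1 GC box (GGGCGG, here on the opposite strand).
Psmb9-Tap1 shared promoter: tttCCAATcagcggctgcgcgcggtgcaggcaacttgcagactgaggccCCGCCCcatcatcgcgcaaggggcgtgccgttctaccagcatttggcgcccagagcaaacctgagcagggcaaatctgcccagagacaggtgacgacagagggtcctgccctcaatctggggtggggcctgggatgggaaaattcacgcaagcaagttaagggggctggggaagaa

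For motifs of factors known to act on proteasome genes, RefSeq promoter windows of 300 bases, from 250 before to 50 after the start site, were searched on both strands. Of these, 37 of the 43 genes had a window, and Psmb1, Psmb2, Psmb7, Psmc3, Psmd3 and Psmd7 had none. The interferon-stimulated response element core (GAAA, 2 bases of any kind, then GAAA), bound by interferon regulatory factors, was found in 4 of the 37 genes, against 3.99% of all 27025 genes with a window (3.44% of all 32851 windows). It is shown in capitals, on the gene's sense strand, for all 4 because they include both directions of difference described below.
Psme1 (chr14:55578493-55578522, + strand): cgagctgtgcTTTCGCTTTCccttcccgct
Psmd4 (chr3:95042675-95042704, - strand): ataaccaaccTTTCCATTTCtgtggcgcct
Psmb3 (chr11:97703261-97703290, + strand): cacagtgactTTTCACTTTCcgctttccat
Psmd9 (chr5:123228021-123228050, + strand): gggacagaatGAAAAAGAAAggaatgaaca
Counted from the start site as position 1, the match lies at 10 to 19 in Psme1, at -80 to -71 in Psmd4, at -163 to -154 in Psmb3 and at -159 to -150 in Psmd9.

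The gamma-activated site (TTCNNNGAA), a motif of interferon-gamma responses, was found in Psmb8 and Psmd2, against 9.55% of all genes (8.30% of windows). The antioxidant response element (TGACNNNGC), bound by the Nrf factors that Nfe2l1 and Nfe2l2 encode, was found in 6 genes (Psmb5, Psmb6, Psmc6, Psmd9, Psmd12 and Psme4), against 13.99% of all genes (12.4% of windows). Of these, Psmb8 is shown with the standard subunit whose place it takes, Psmb5, and with Psmb6, the standard counterpart of Psmb9.
Psmb8, gamma-activated site in capitals (chr17:34198088-34198117, + strand): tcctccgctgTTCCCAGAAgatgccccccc
Psmb5, antioxidant response element in capitals (chr14:54618023-54618052, - strand): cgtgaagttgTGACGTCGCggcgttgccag
Psmb6, antioxidant response element in capitals (chr11:70525338-70525367, + strand): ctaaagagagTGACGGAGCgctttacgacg
These matches lie at -97 to -89 in Psmb8, -47 to -39 in Psmb5 and -9 to -1 in Psmb6. The NF-kappa-B consensus was found in 6 of the 37 genes (Psma6, Psma7, Psmd11, Psmd12, Psmd13 and Psme4), against 9.55% of all genes (8.46% of windows). The CCAAT box was found in 13 genes, against 41.1% of all genes (37.4% of windows), and the GC box in 23 genes, against 38.2% (35.7% of windows). The 4 genes with a response element core did not share a direction in the data below: Psme1 and Psmd4 were higher in the mature library, Psmb3 was lower, and the counting interval of Psmd9 spanned 1. A match describes the letters of the window and not a bound site.

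Depth was 7.56 M reads over 16573 genes (immature) and 8.07 M reads over 16646 genes (mature), and 3 reads on a gene model of 1000 bases stood at 0.397 and 0.372 RPKM. With 1 library of each state, no difference below has a replicate check and none was tested. A ratio divides mature by immature RPKM, or gives the inverse where "lower" is written, with the exact 95% counting interval (Clopper-Pearson) in parentheses; this covers counting error alone, and reads lacking molecular identifiers cannot be taken as independent molecules. In bulk RNA, fewer cells of a type and less RNA per cell cannot be told apart. Dendritic cell markers were present in both libraries, none of 12 at 0: the integrin Itgax stood at 407 and 148 RPKM, the class II gene H2-Ab1 at 1256 and 978, the costimulatory gene Cd86 at 26.1 and 152, and the lymph node homing receptor Ccr7 at 31.5 and 578. The cells were sorted on CD86 and I-Ab, so Cd86 and H2-Ab1 are no independent check of the labels. The lowest of the 12 were Flt3 (0.722 and 3.28 RPKM) and Zbtb46 (4.51 and 13.2 RPKM). Markers of other marrow cells and of dividing cells differed between the libraries too. The 15 neutrophil and granulocyte precursor markers summed to 8464 RPKM (immature) and 2188 (mature), with 11 of them at least 2-fold lower in the mature one and none at 0 in either. The 9 mast cell, basophil and eosinophil markers summed to 412 and 25.8 RPKM (7 at least 2-fold lower, none at 0). The 14 macrophage and monocyte markers summed to 1514 and 1033 RPKM (7 lower and 1 higher at least 2-fold, none at 0). The 22 cell cycle genes summed to 1084 and 125 (all 22 at least 2-fold lower, none at 0). Among all genes that reached 1 RPKM in either library, 11.3% were at least 2-fold lower and 9.05% at least 2-fold higher. Sums for the remaining marker lists were 16.4 and 62.1 RPKM for B cells, nearly all of it Blnk (13.7 and 59.95), with Pax5 and Ebf1 at 0 in the mature and Vpreb1 and Igll1 at 0 in the immature library. They were 2.89 and 6.60 for T cells (Cd4 and Bcl11b at 0 in the immature library) and 5.64 and 5.40 for NK cells (Ncr1 at 0 in the immature and Klrb1c in the mature library). They were 1.58 and 0.409 for erythroid cells and 99.8 and 195 for plasmacytoid dendritic cells, mainly Bst2 (84.4 and 174), with Ly6d at 0 in the mature library. The part of these other cells in the values below was not tested.

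Most proteasome genes were somewhat lower in the mature library, and a small group that includes 2 of the 3 immunoproteasome subunits was higher. The 43 genes summed to 4241 RPKM (immature) and 3418 (mature), and their share of all counted reads was 0.578% (Wilson 95% interval 0.573 to 0.583) and 0.466% (0.462 to 0.471). The plain ratio was below 1 for 34 of the 43 (79.1%), against 48.4% of the 11547 genes that reached 1 RPKM in either library. The counting interval lay wholly below 1 for 31 members (72.1%, against 33.8% of all genes), wholly above 1 for 6 members (13.95%, against 36.1%), and spanned 1 for the other 6. Counting intervals narrow as reads increase, so these shares are not compared at a like level. The median was 87.5 (immature) and 59.8 RPKM (mature) for members, against 10.4 and 10.4 for all genes past the filter. The members with an interval above 1 were Psmb8, Psmb9, Psmd4, Psme1, Psmf1 and Psme4, whose ratio passes below 1 with the length trend removed.

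**Figure D1:**
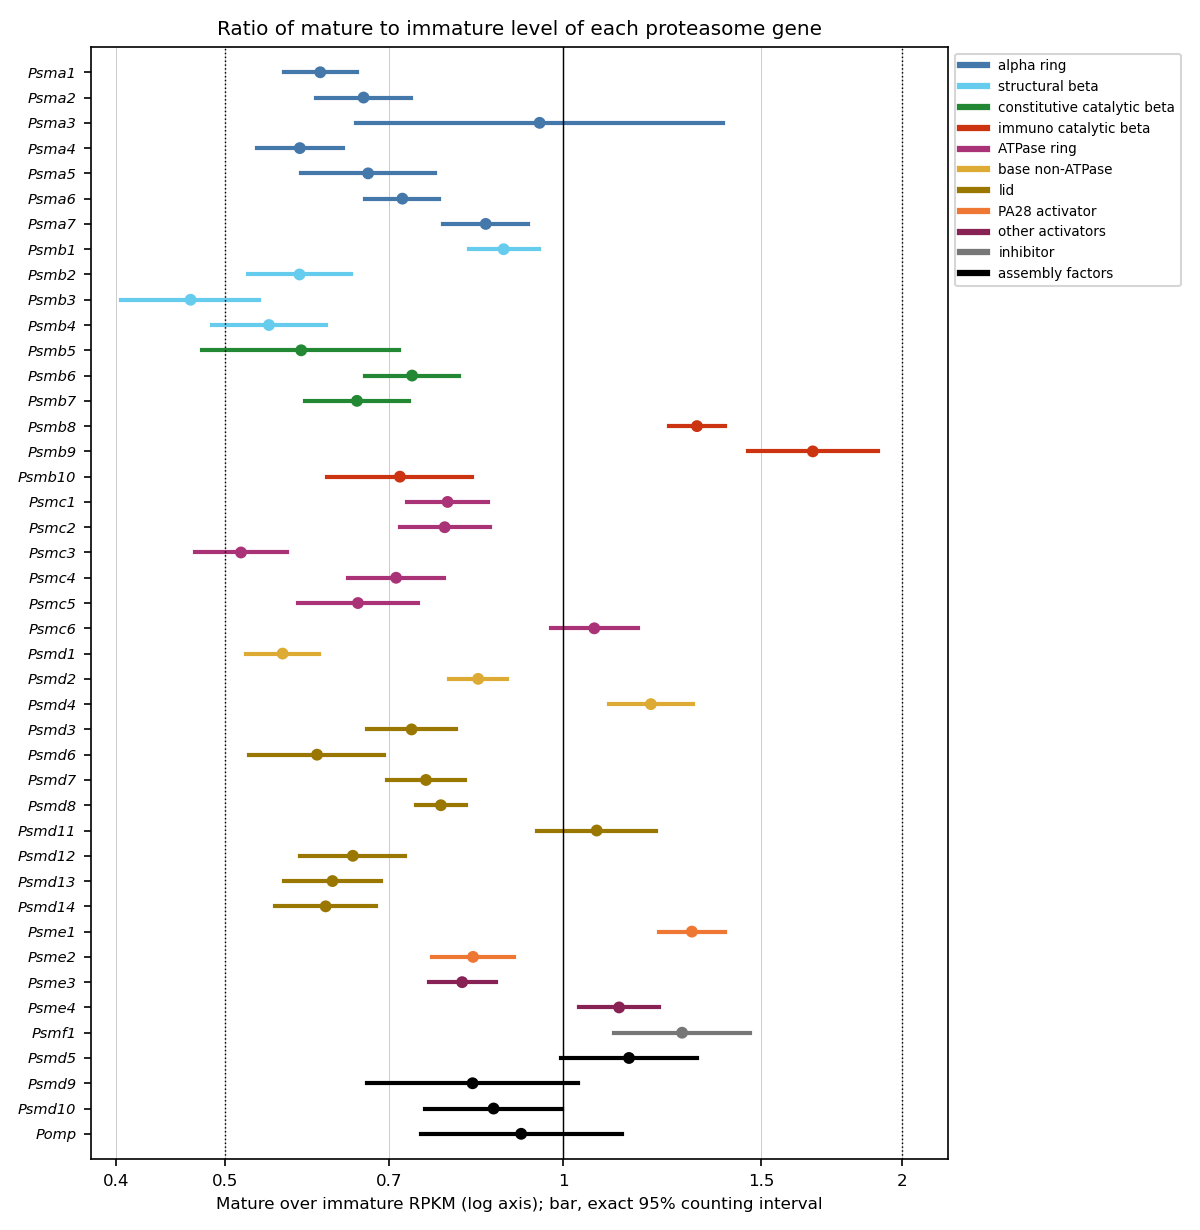
Ratio of mature to immature RPKM for each of the 43 genes (points, log axis), coloured by subcomplex, with bars for the exact 95% counting interval; dotted lines mark 2-fold. The points run from 0.466 for Psmb3 to 1.67 for Psmb9, with the alpha and standard beta subunits to the left of 1 and Psmb8, Psmb9 and Psme1 to the right. With the trend on gene length removed, Psma3, Psma7 and Psmb1 would fall just right of 1, and Psma3 also with RPKM rescaled to a common sum.

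The differences were small. All genes here include many of lower level, down to 1 RPKM, where counting error is larger. The comparisons with them are therefore not made at a like level. On the scale of log2 (RPKM + 1), which understates the change of low genes, the median over the 43 genes was -0.40 with an SD of 0.41, against a median of 0.03 and an SD of 0.93 over all 11547 genes. No member was higher by 2-fold or more in the mature library, against 9.05% of all genes, and 1 member, Psmb3, was at least 2-fold lower, against 11.3%. At 1.5-fold, 1 member (Psmb9, 2.33%) was higher, against 21.4% of all genes, and 14 members (32.6%) were lower, against 21.7%. These 14 were Psma1, Psma4, Psmb2, Psmb3, Psmb4, Psmb5, Psmb7, Psmc3, Psmc5, Psmd1, Psmd6, Psmd12, Psmd13 and Psmd14, so each layer of the core and of the regulatory particle was represented.

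**Figure D2:**
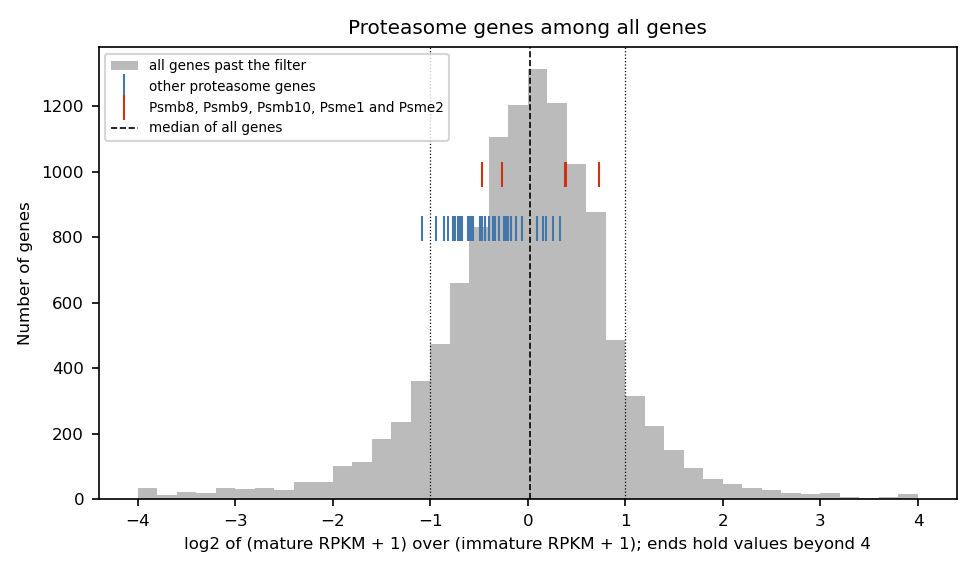
Histogram of log2 of (mature RPKM + 1) over (immature RPKM + 1) for the 11547 genes that reached 1 RPKM (grey, number of genes on the vertical axis), with ticks for the proteasome genes placed at arbitrary heights; dotted lines mark 2-fold and the dashed line the median of all genes, 0.03. The 38 other proteasome genes (blue) mostly lie left of the median, while Psmb8, Psmb9 and Psme1 (red) lie to its right and Psmb10 and Psme2 to its left.

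The 3 immunoproteasome subunits did not share a direction: Psmb8 and Psmb9 were higher in the mature library and Psmb10 was lower. Psmb8, the chymotrypsin-like subunit that takes the place of Psmb5, had 2068 reads (224 RPKM) in the immature and 2903 reads (294 RPKM) in the mature library, 1.32-fold higher (1.24 to 1.39). Psmb9, the counterpart of Psmb6, had 354 reads (58.1 RPKM) and 630 reads (96.8 RPKM), 1.67-fold higher (1.46 to 1.90) and the highest ratio of the 43. Psmb10, the trypsin-like subunit that takes the place of Psmb7, differed in the other direction, with 415 reads (43.2 RPKM) and 317 reads (30.9 RPKM), 1.40-fold lower (1.20 to 1.62). Among the 43 genes, Psmb8 was thus the second most abundant in the immature library and the most abundant in the mature one, while Psmb10 was the least abundant of the 3 immunoproteasome subunits in both.

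Each standard catalytic subunit was lower in the mature library. Psmb5, which carries the chymotrypsin-like site, had 258 reads (39.2 RPKM) and 161 reads (22.9 RPKM), 1.71-fold lower (1.40 to 2.10). Psmb6, which carries the caspase-like site, had 950 reads (121 RPKM) and 744 reads (89.0 RPKM), 1.36-fold lower (1.24 to 1.5). Psmb7, which carries the trypsin-like site, had 852 reads (116 RPKM) and 596 reads (76.2 RPKM), 1.53-fold lower (1.37 to 1.70). All 3 intervals lay below 1, and the summed level of the 3 standard subunits went from 277 to 188 RPKM while that of the 3 immunoproteasome subunits went from 325 to 422 RPKM.

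Ratios within a library compare subunits that compete for the same position, and they do not depend on the library total. Psmb8 over Psmb5 was 5.71 (5.01 to 6.52) in the immature and 12.8 (11.0 to 15.1) in the mature library, 2.25 times as large (1.82 to 2.78). Psmb9 over Psmb6 was 0.479 (0.423 to 0.542) and 1.09 (0.977 to 1.21), 2.27 times as large (1.93 to 2.68). Psmb10 over Psmb7 was 0.372 (0.330 to 0.418) and 0.406 (0.353 to 0.466), 1.09 times as large (0.908 to 1.31), an interval that includes 1 and does not overlap those of the other pairs. The immunoproteasome subunits made 54.0% of the summed RPKM of the 6 catalytic genes in the immature library and 69.2% in the mature one. The level of Psmb5 rests on reads over 49.8% and 51.5% of its gene model, and with each gene's length replaced by its covered length Psmb8 over Psmb5 became 2.95 and 7.36.

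**Figure D3:**
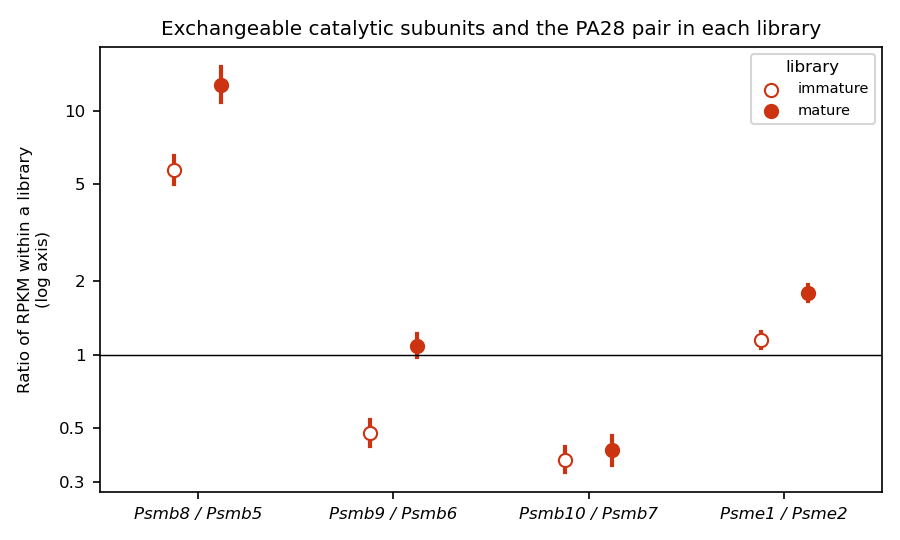
Ratio of RPKM within a library (vertical, log axis) for the 3 pairs of an immunoproteasome subunit and its standard counterpart and for Psme1 over Psme2, in the immature (open) and mature (filled) library, with exact 95% counting intervals as bars. The ratio is higher in the mature library for Psmb8 over Psmb5 (5.71 to 12.8), Psmb9 over Psmb6 (0.479 to 1.09) and Psme1 over Psme2 (1.15 to 1.79), and the intervals overlap for Psmb10 over Psmb7 (0.372 and 0.406).

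Among the immunoproteasome subunits themselves, in pairs chosen after their values were seen, Psmb8 over Psmb10 was 5.17 (immature) and 9.51 (mature), 1.84 times as large (1.57 to 2.16). Psmb9 over Psmb10 was 1.34 and 3.13, 2.33 times as large (1.91 to 2.85). Psmb8 over Psmb9 was 3.85 and 3.04, which is 0.789 times (0.682 to 0.911). Psmb9 and Psmb8 lie beside the transporter genes in the order given above, and Psmb10 does not belong to that cluster. The neighbours Tap1 and Tap2 stood at 38.5 and 125 RPKM (3.25-fold higher, 3.01 to 3.51) and at 58.7 and 92.9 RPKM (1.58-fold higher, 1.47 to 1.71). Tap1 and Psmb9, which share the stretch printed above, differed in the same direction, Tap1 by the larger ratio. The part of gene position or of the shared stretch in these ratios was not tested.

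The 4 beta subunits without an active site were all lower in the mature library (3 of them, without Psmb1, once the trend on gene length is removed), with the lowest median of any subcomplex (median ratio 0.565), and summed to 560 RPKM (immature) and 370 RPKM (mature). Psmb3 had 603 reads (109 RPKM) and 300 reads (50.8 RPKM), 2.15-fold lower (1.86 to 2.47), so its interval includes 2-fold. Psmb4 stood at 109 and 59.8 RPKM (1.83-fold lower, 1.63 to 2.05) and Psmb2 at 143 and 83.3 RPKM (1.72-fold lower, 1.55 to 1.91). Psmb1 stood at 199 and 176 RPKM (1.13-fold lower, 1.05 to 1.21), a ratio that passes to just above 1 (1.01) once the trend on gene length is removed. The ring's structural subunits, which every type of core contains, thus spanned nearly the whole range of the standard core.

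The 7 alpha subunits, which the standard and the immunoproteasome share, summed to 914 RPKM (immature) and 628 RPKM (mature), and all 7 plain ratios were below 1, apart from Psma3 and Psma7 with the length trend removed and Psma3 with RPKM rescaled to a common sum. Psma4, whose N-terminal tail is part of the gate, stood at 160.3 and 93.5 RPKM (1.72-fold lower, 1.57 to 1.87). Psma1 stood at 188 and 114 RPKM (1.65-fold lower, 1.53 to 1.77), Psma2 at 136 and 90.3 RPKM (1.51-fold lower, 1.37 to 1.66). Psma5, covered over 48.4% of its model in both libraries and so uncertain in level, stood at 54.6 and 36.6 RPKM (1.49-fold lower, 1.30 to 1.71). Psma6 was the most abundant alpha subunit in both libraries, at 209 and 150.3 RPKM (1.39-fold lower, 1.29 to 1.5). Psma7 stood at 161 and 138 RPKM (1.17-fold lower, 1.07 to 1.28), and its ratio came to 1.01 with the length trend removed. Psma3 had 59 and 60 reads (5.44 and 5.18 RPKM) over only 19.7% and 17.5% of its gene model, so its level is uncertain. Its ratio of 0.953 (0.654 to 1.39) spanned 1, and it lay at 1.01 with RPKM rescaled to a common sum and at 1.04 with the length trend removed.

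**Figure D4:**
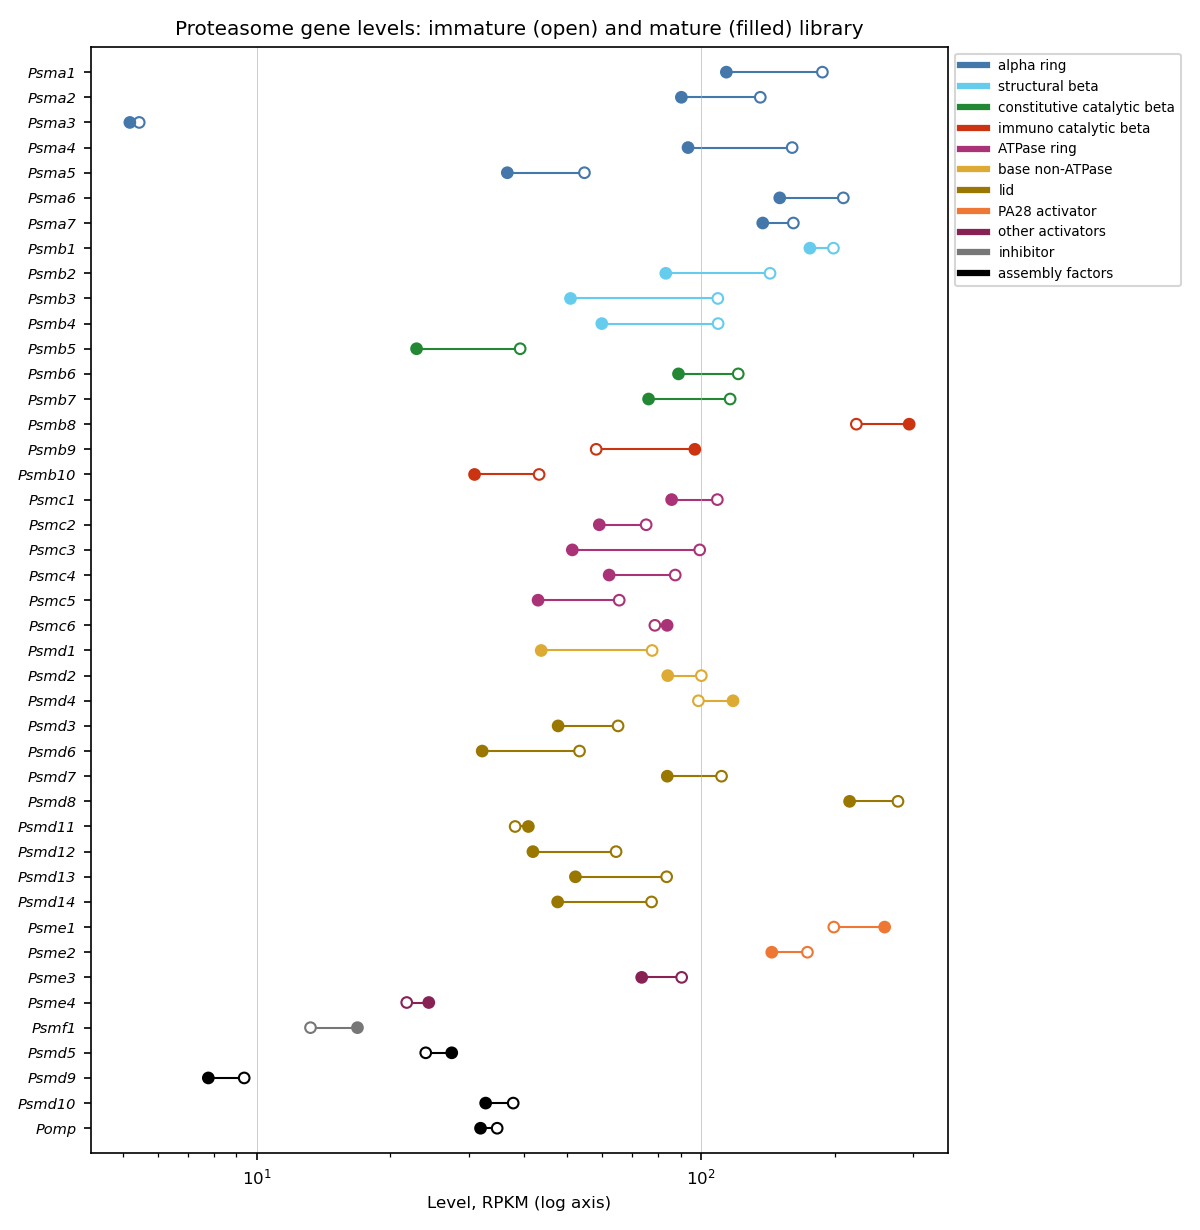
RPKM (log axis) of the 43 genes in the immature (open circles) and mature (filled circles) library, joined by a line and coloured by subcomplex. Most filled circles lie left of their open ones; Of these genes, Psmd8 (277 RPKM) leads the immature and Psmb8 (294 RPKM) the mature library, and Psma3, at 5.44 and 5.18 RPKM, is the lowest in both.

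The regulatory particle was lower as well. Its 17 subunits summed to 1562 and 1193 RPKM, 1.31-fold lower, against 1751 and 1185 RPKM, 1.48-fold lower, for the 14 standard core subunits. The median ratio was 0.733 for the 17 and 0.660 for the 14 genes, and these came to 0.771 and 0.753 with the length trend removed, so the gap between the particles was smaller then. In the base, the 6 ATPases, which pull the unfolded chain into the core, ranged from 1.07-fold higher to 1.94-fold lower. Psmc3 was the lowest in ratio and the closest to 2-fold of the genes inside it, with 1240 reads (99.3 RPKM) and 684 reads (51.3 RPKM), 1.94-fold lower (1.76 to 2.13). Psmc5 stood at 65.4 and 42.97 RPKM (1.52-fold lower, 1.35 to 1.72) and Psmc4 at 87.5 and 62.1 RPKM (1.41-fold lower, 1.28 to 1.55). Psmc1 stood at 109 and 85.8 RPKM (1.27-fold lower, 1.17 to 1.38) and Psmc2 at 75.2 and 59.0 RPKM (1.27-fold lower, 1.16 to 1.40). Psmc6 was the exception in the ring, at 78.7 and 83.9 RPKM with a ratio of 1.07 (0.975 to 1.16) that spanned 1. The levels of the 6 ATPases, which enter the ring in equal number, lay within 1.66-fold of each other in the immature library and spread to 2.00-fold in the mature one.

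The 3 base subunits that are not ATPases differed in direction. Psmd1, a large scaffold of the base, had 1911 reads (77.6 RPKM) and 1148 reads (43.7 RPKM), 1.78-fold lower (1.65 to 1.91). Psmd2, the scaffold on which ubiquitin shuttle proteins dock, stood at 100.1 and 84.1 RPKM, 1.19-fold lower (1.12 to 1.26). Psmd4, a ubiquitin receptor, had 934 reads (98.6 RPKM) and 1193 reads (118 RPKM), 1.20-fold higher (1.10 to 1.31), and was the only subunit of the 19S particle measured here with an interval above 1. Of these, Psmd4 holds the interferon-stimulated response element core shown above and Psmd2 a gamma-activated site.

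Of the 8 lid subunits, which position the enzyme that removes ubiquitin, 7 were lower with intervals below 1, against 33.8% of all genes. Psmd14, that deubiquitinating enzyme, stood at 77.4 and 47.6 RPKM (1.63-fold lower, 1.47 to 1.81). Psmd6 stood at 53.3 and 32.2 RPKM (1.66-fold lower, 1.44 to 1.90), Psmd13 at 83.7 and 52.1 RPKM (1.60-fold lower, 1.45 to 1.77) and Psmd12 at 64.4 and 41.8 RPKM (1.54-fold lower, 1.38 to 1.71). Psmd3 stood at 65.0 and 47.7 RPKM (1.36-fold lower, 1.25 to 1.5) and Psmd7, the inactive partner of Psmd14, at 111 and 83.9 RPKM (1.32-fold lower, 1.22 to 1.44). Psmd8 had 3208 and 2665 reads and was the most abundant of the 17 regulatory subunits in both libraries, at 277 and 216 RPKM (1.28-fold lower, 1.22 to 1.35). Psmd11, which clamps the regulatory particle to the core, stood at 38.2 and 40.9 RPKM, a ratio of 1.07 (0.948 to 1.21) that spanned 1. Sem1, the small subunit of the lid that lies outside the 43, had a higher level than Psmd8 in both libraries, at 624 and 281 RPKM, 2.22-fold lower (2.07 to 2.39).

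The activators, which dock on the core in place of the regulatory particle, divided in plain ratio within the PA28 complex. Psme1, its alpha chain, had 1470 reads (199 RPKM) and 2042 reads (259 RPKM), 1.30-fold higher (1.22 to 1.39). Psme2, its beta chain, had 1189 reads (174 RPKM) and 1055 reads (144 RPKM), 1.20-fold lower (1.11 to 1.31), although both chains enter the same ring and the genes lie close together on chromosome 14 with only Emc9 between them. With the length trend removed, the ratio of Psme2 came to 0.977, outside its counting interval and close to 1, and that of Psme1 to 1.51. Psme1 over Psme2, a pair chosen after its values were seen, was 1.15 (1.06 to 1.24) in the immature and 1.79 (1.67 to 1.94) in the mature library, 1.57 times as large (1.41 to 1.74). Psme2 has near-identical copies in the genome and reads covered 70.6% and 70.5% of its model, so its level is uncertain. No uniquely placed reads were listed for the copy Psme2b in either library. Shared reads are not counted and the copy may be missing from the annotation, so its level was not measured.

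Of the nuclear activators, Psme3 stood at 90.4 and 73.5 RPKM (1.23-fold lower, 1.15 to 1.32). Psme4, which promotes degradation of acetylated histones, had 1062 and 1271 reads (21.8 and 24.4 RPKM), 1.12-fold higher (1.03 to 1.22), but its ratio passed to 0.975 with the length trend removed, its gene model being the longest of the 43 at 6454 bases. Psmf1, named as a proteasome inhibitor, had 354 and 482 reads (13.2 and 16.9 RPKM), 1.28-fold higher (1.11 to 1.47). Its ratio came to 1.21 with the length trend removed, and its level was below those of Psmb8, Psmb9 and Psme1 in both libraries.

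The assembly factors guide building of the particles and leave them afterwards, and of the 4 among the 43 genes only Psmd10 had an interval that excluded 1. Pomp, which escorts maturing core particles, had 193 and 189 reads (34.8 and 31.9 RPKM), a ratio of 0.917 (0.747 to 1.13) that spanned 1 and came to 1.12 with the length trend removed. Reads covered 42.2% and 43.05% of its model. Of the base chaperones, Psmd5 stood at 24.0 and 27.5 RPKM (1.14-fold higher, 0.996 to 1.32), Psmd9 at 9.37 and 7.78 RPKM (1.20-fold lower, 0.971 to 1.5) and Psmd10 at 37.8 and 32.8 RPKM (1.15-fold lower, 1.00 to 1.33). The 4 factors summed to 106 RPKM (immature) and 99.9 RPKM (mature).

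The order of the 43 genes by level was largely kept between the libraries (across genes, Pearson's r of log2 RPKM 0.942 and Spearman's rho 0.918 over 43 genes, which share library and gene model and are not independent replicates). Even so, subunits that enter the particle in equal number differed in transcript level: leaving out Psma3, the alpha subunits spanned 3.82-fold in the immature and 4.10-fold in the mature library. The 38 genes other than Psmb8, Psmb9, Psmb10, Psme1 and Psme2 summed to 3544 and 2593 RPKM, 1.37-fold lower in the mature library. Members had shorter gene models than all genes, with a median of 1313 against 2654 bases, and in these libraries the ratio varied with length. With that trend removed, 31 members lay below 1 and 12 above, with a median ratio of 0.810 in place of 0.755. Rescaling RPKM to a common sum raised every log2 ratio by 0.09 and left 33 members below 1.

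Of 9 regulators of the immunoproteasome genes, all had plain ratios above 1 (median ratio 1.76), against 51.6% of all genes. The counting interval lay above 1 for 8, against 36.1% of all genes, and spanned 1 for Irf2. At least 2-fold higher were 4 of the 9, against 9.05% of all genes. Irf8, an interferon regulatory factor of dendritic cells, stood at 37.2 and 350.4 RPKM (9.42-fold higher, 8.76 to 10.1). Stat2 stood at 16.7 and 60.7 RPKM (3.63-fold higher, 3.31 to 3.99) and Irf9, its partner in an interferon-activated complex, at 14.3 and 37.7 RPKM (2.63-fold higher, 2.29 to 3.03). These 3 ratios were above those of Psmb8 and Psmb9, while Irf1, a factor known to induce the immunoproteasome genes, stood at 49.7 and 54.9 RPKM (1.10-fold higher, 1.00 to 1.21) and Irf2 at 56.6 and 59.8 RPKM (1.06, 0.972 to 1.15). Of the 6 genes around Nrf1, the factor that raises proteasome genes when proteasome activity falls short, none differed 2-fold. Among all genes, 9.05% were at least 2-fold higher and 11.3% lower. Nfe2l1, which encodes it, stood at 41.0 and 72.9 RPKM (1.78-fold higher, 1.67 to 1.89). The related Nfe2l2 stood at 84.9 and 42.7 RPKM (1.99-fold lower, 1.83 to 2.16). Irf1, Irf2, Nfe2l1 and Nfe2l2 were singled out after their values were seen.

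Among 18 measured proteins that associate with the proteasome, 0 were at least 2-fold higher (9.05% of all genes) and 2 were at least 2-fold lower (against 11.3% of all genes, a like share): Sem1, given above, and Uchl5, a deubiquitinating enzyme of the regulatory particle, at 33.1 and 15.1 RPKM (2.19-fold lower, 1.87 to 2.58). The tissue-restricted subunits Psma8 of testis and Psmb11 of thymic epithelium had 14 and 12 reads and 4 and 4 reads, so the core of these cells was measured by the 17 members. Of 8 ubiquitin genes and activating enzymes, 1 was at least 2-fold lower, against 11.3% of all genes. This was Rps27a, with only 19 and 5 reads and many copies in the genome, so it is uncertain. Of 4 further assembly factors, 0 differed 2-fold, against 9.05% of all genes higher and 11.3% lower. The largest difference was in Psmg1, a chaperone of the alpha ring, at 20.5 and 10.6 RPKM (1.94-fold lower, 1.48 to 2.55). Psmg2, Paaf1, Akirin2 and Mafg were not analysed here.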

How the data were processed

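Each sample's RNA was sequenced as 1 library. The deposited files list, per the file headers, the count of uniquely placed reads per Entrez gene, the gene model's length, the percent of it covered by reads, and RPKM made by the authors from the first of these. The submitters' processing notes name build mm8. Not given in the sources used here were the aligner, counter, strandedness and annotation. Totals were 7563533 and 8073541 reads, and the RPKM formula returned every deposited value within a relative 1.07e-07. A gene missing from 1 file was taken as 0 reads. Symbols and promoter sequences came from RefSeq tables of GRCm38.p6 (16220 of 18090 IDs matched); that build differs from the files', so promoter positions carry no values.

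With 1 library per state no test was made. Log2 folds used a pseudocount of 1 RPKM for genes that reached 1 RPKM, and ratios of 2 genes or libraries used the reads with exact 95% intervals. The members and the gene lists were chosen with earlier results of these data known. All 43 members are named. The cell cycle and marker lists are given mainly as sums, with the markers Itgax, H2-Ab1, Cd86 and Ccr7. For each other list, up to 4 genes at least 2-fold higher and up to 4 lower are named, with Tap1 and Tap2. Others are marked. Some listed genes are not reported here. Alternatives changed the pseudocount, filter, scaling, threshold, coverage and length. Scripts were first tested on simulated data, using Python 3.11.15 with scipy 1.17.1 and statsmodels 0.14.6.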

Additional observations from a re-analysis of the deposited data

How the results depend on the processing

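The median log2 fold of the 43 genes stayed negative under every planned setting. With a pseudocount of 5 RPKM, 469 of all genes were at least 2-fold higher and 686 lower, against 1045 and 1310; at 1.5-fold these were 2474 and 2503, and 1 and 14 of the proteasome genes. Proteasome genes at least 2-fold lower were 0, in place of 1, with the length trend removed and with the whole counting interval required to lie beyond 2-fold. With the length trend removed, median log2 folds were 0.54 for the immunoproteasome subunits (0.48 with RPKM rescaled to a common sum, against 0.39), -0.58 for the structural beta subunits (against -0.82), -0.39 for the standard catalytic subunits (against -0.60), 0.28 for PA28 (against 0.06) and 0.04 for the assembly factors (against -0.16), and the ratio of Psmb9 was 2.00. With covered in place of full length, Psmb8 over Psmb5 was 2.95 (immature) and 7.36 (mature), and Psmb9 over Psmb6 was 0.95 in mature cells. The summed immunoproteasome over the summed standard subunits was 1.91 times as large in the mature library, in place of 2.27 for Psmb9 over Psmb6 and 1.09 for Psmb10 over Psmb7. The cause of these shifts was not tested, beyond what each setting changes by construction. Another 139 values, the assembly factors' median among them, stayed within their counting interval or, for counts, moved by at most 1.5-fold. The counting interval of a median was that of its middle gene or genes. Among the ratios of single members, 18 of 43 moved beyond their counting interval with the length trend removed, 3 with the common sum, and 0 with the other 3 settings. No replicate could be left out, and no paired analysis was possible because each state has 1 library. Counting error limits Psma3 and Psmd9 most.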

Other observations

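Downstream of the proteasome, 13 genes that trim or carry its peptides had a median ratio of 1.01. On the scale of log2 (RPKM + 1), 1 was at least 2-fold higher, Tap1, against 9.05% of all genes. None was at least 2-fold lower, against 11.3%. The counting interval lay above 1 for 6 of the 13 and below 1 for 6, against 36.1% and 33.8% of all genes. The chaperone Tapbp, which ties the transporter to class I molecules, stood at 118 and 171 RPKM (immature and mature; 1.45-fold higher, 1.38 to 1.53). Most of the cytosolic peptidases were lower in the mature library, while Npepps and Nrdc were higher. Nln stood at 14.8 and 7.18 RPKM (2.06-fold lower, 1.74 to 2.43), Lap3 at 37.5 and 18.6 RPKM (2.01-fold lower, 1.76 to 2.30) and Thop1 at 11.2 and 5.65 RPKM (1.98-fold lower, 1.58 to 2.50). With the 1 RPKM added for the counts, Nln and Lap3 stayed within 2-fold. Prep stood at 43.2 and 23.9 RPKM (1.81-fold lower, 1.62 to 2.01) and Blmh at 26.8 and 15.6 RPKM (1.71-fold lower, 1.48 to 1.99). Tpp2 stood at 30.8 and 23.5 RPKM (1.31-fold lower, 1.20 to 1.43). Npepps stood at 58.6 and 72.4 RPKM (1.24-fold higher, 1.16 to 1.31) and Nrdc at 61.7 and 68.4 RPKM (1.11-fold higher, 1.04 to 1.18). Erap1, which trims peptides in the endoplasmic reticulum, stood at 26.5 and 26.7 RPKM, a ratio of 1.01 (0.915 to 1.11). The genes named in this paragraph, Tap1 apart, were chosen after their values were seen.

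No uniquely placed reads were listed in either library for the processed copies Psmb5-ps, Psmb6-ps, Psmb6-ps2, Psmb7-ps1 and Psmb7-ps2. Psma5-ps had 1 and 0. A copy without listed reads may be missing from the annotation, and reads shared with the subunit's own gene are not counted. The contribution of the copies was therefore not measured. The other proteasome-linked scaffold Ecpas, also chosen after its values were seen, had 1752 and 2988 reads (39.1 and 62.5 RPKM), 1.60-fold higher (1.51 to 1.70).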
